A study of Mus musculus with 4 samples.

Results

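The 42 genes described here act in the recognition of damaged DNA, in the checkpoints that hold the cell cycle, and in the repair of the lesion. They were taken from a fixed list and sorted into homologous recombination, the Fanconi anaemia pathway, checkpoint and break sensing, mismatch repair and end joining. A probe set stood for a gene where the platform annotation gave exactly 1 gene symbol, and the one with the highest mean over the 4 arrays was kept. By this rule 41 of the 42 genes were measured, among 18193 genes in all, and Xrcc2 had no such probe set. The study compared mouse haematopoietic stem cells (HSC), sorted in a KLS CD48- CD150+ gate, on Affymetrix arrays. The 2 Rb family deficient pools, named TKO in the labels, had the genotype Rb -/- p130 -/- p107-/-. The 2 wild type (WT) pools were labelled Rb +/+ p130 +/+ p107-/-. Mice of both groups therefore lacked p107 by label, and the groups differed in Rb and p130. Recombination was started in adult mice with tamoxifen, the cells were collected 2 weeks later, and each pool combined 3 mice. The sources used here do not state the driver of the recombinase, the age of the mice or whether WT mice also received tamoxifen.

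The Rb family proteins bind E2F transcription factors and hold back genes needed for DNA synthesis, among them many genes of replication-coupled repair. Homologous recombination copies an intact sister chromatid and so works mainly in S and G2 phase, whereas end joining ligates broken ends directly and works in all phases, including in resting cells. The Fanconi anaemia proteins open DNA interstrand crosslinks at stalled forks, mismatch repair corrects replication errors, and the kinases ATM and ATR signal breaks and stalled forks. Most adult HSC are resting, and loss of Fanconi anaemia, ATM or end joining genes impairs HSC in mice.

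The promoters below are shown because they carry a sequence word bound by E2F and belong to genes whose differences had opposite signs. Promoter windows of 250 bases before to 50 bases after the annotated start were taken from a table of RefSeq promoters (build GRCm38.p6), in which 33 of the 42 members were matched. Promoters of Rad54b, Xrcc2, Fancd2, Usp1, Tipin, Rad50, Nbn, Exo1 and Prkdc were not analysed here. The E2F word was searched on both strands in 4 spellings, TTTCCCGC, TTTCGCGC, TTTGCCGC and TTTGGCGC. Each stretch is the 200 bases before the start, read 5′ to 3′ along the gene, with the E2F word in capitals. All are on the plus strand. Brca2 lies at chr5:150522421-150522620, Chek2 at chr5:110839783-110839982, Topbp1 at chr9:103305127-103305326, Mdc1 at chr17:35841298-35841497 and Xrcc6 at chr15:82016169-82016368.
Brca2: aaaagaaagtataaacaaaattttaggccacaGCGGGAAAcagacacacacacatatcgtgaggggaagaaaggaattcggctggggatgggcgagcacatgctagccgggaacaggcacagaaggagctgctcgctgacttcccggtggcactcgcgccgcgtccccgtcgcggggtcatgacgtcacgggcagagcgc
Chek2: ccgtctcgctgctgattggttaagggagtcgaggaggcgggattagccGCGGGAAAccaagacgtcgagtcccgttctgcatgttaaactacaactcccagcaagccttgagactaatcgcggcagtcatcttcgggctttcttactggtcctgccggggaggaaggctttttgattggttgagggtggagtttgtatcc
Topbp1: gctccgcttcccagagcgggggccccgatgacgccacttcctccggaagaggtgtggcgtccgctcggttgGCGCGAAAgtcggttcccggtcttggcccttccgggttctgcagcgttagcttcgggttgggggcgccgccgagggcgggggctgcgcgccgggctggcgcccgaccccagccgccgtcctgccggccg
Mdc1: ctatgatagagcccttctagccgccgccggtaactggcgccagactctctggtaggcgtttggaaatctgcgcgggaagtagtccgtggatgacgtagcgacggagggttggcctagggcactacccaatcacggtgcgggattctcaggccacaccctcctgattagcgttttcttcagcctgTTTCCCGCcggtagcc
Xrcc6: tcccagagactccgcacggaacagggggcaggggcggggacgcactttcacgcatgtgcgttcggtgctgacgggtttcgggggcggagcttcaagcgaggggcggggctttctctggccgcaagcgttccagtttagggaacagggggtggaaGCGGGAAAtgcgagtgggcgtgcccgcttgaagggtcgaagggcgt
In Brca2 the word GCGGGAAA, the reverse complement of the first spelling, began 168 bases before the start. Chek2 and Xrcc6 held the same word 152 and 46 bases before the start, Topbp1 held GCGCGAAA at 129 bases and Mdc1 held TTTCCCGC at 16 bases. Bard1 and Fancg also held TTTCCCGC, at 209 and 52 bases before the start. In Rad51c, Clspn and Msh6 a word lay at or after the start, and Rad51c had such a word in each of its 2 windows. In all, 10 of the 33 members (30.3%) held an E2F word, against 2.60% of the 27025 genes with a window in the table. Of the 11 words, 0 overlapped either of the other motifs searched. These were the CHR element (TTTGAA or TTCGAA), held by 2 of the 33 members (6.06%) and 21.7% of genes, and the CCAAT box (CCAAT), held by 20 (60.6%) and 41.1%. A match describes these letters in this window and is not a measured binding site.

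Every value that follows is a log2 RMA expression value, and every difference is TKO minus WT with the standard error (SE) of limma's fit over all genes (n = 2 pools per group). By limma with Benjamini-Hochberg adjustment, 0 of the 41 members passed the threshold of 0.05, and 0% of all genes passed. The lowest adjusted p of a member was 0.761. Nothing in the labels says whether pools shared mice, so these p-values measure the spread between the pools. As a group 25 of the 41 members were higher in the TKO pools, with a median difference of 0.18, where 49.2% of all genes were higher and the median was -0.00376. At an unadjusted p under 0.05, 2 members were higher (Brca2 and Rad51ap1) against 2.19% of all genes, and 3 were lower (Rad52, Xrcc4 and Xrcc6) against 4.04%. Both TKO pools lay above both WT pools for 11 members, against 17% of all genes, and below for 9, against 18.5%. Both counts at an unadjusted p changed whichever pool was left out. The share of all genes was not taken in those fits, so their counts are not given. The median of all members was 0.08 without TKO pool 2 and 0.00348 without WT pool 2.

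**Figure D1:**
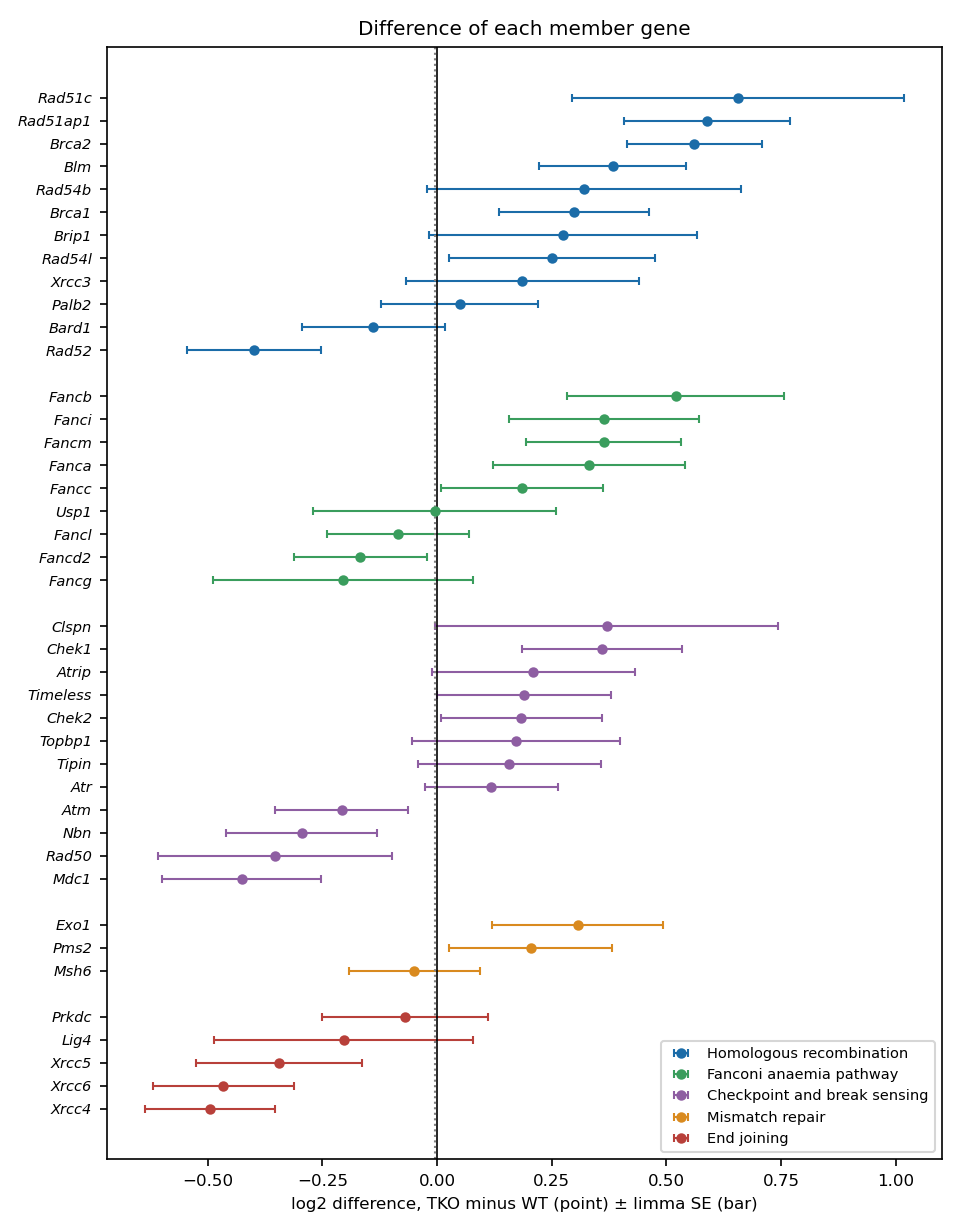
Log2 difference of each of the 41 members, TKO minus WT, grouped by pathway, with points for the difference and bars for limma's SE (2 pools per group). The dotted line is the median of all genes. Homologous recombination runs from -0.40 to 0.66, and all 5 end joining genes lie below 0.

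Array medians ran from 5.94 to 6.02, and pairs of pools correlated between 0.983 and 0.990 over all genes, which are not replicates. The highest correlation was between TKO pool 2 and WT pool 2 (0.9903) and the lowest between TKO pool 1 and WT pool 1 (0.983). The TKO pools correlated at 0.9899 and the WT pools at 0.987, so the pools did not group by genotype on this measure. WT pool 2 stood apart in the proliferation markers. Its 23 measured proliferation markers were lower than in WT pool 1 in 22 cases, with a median of -0.68, and Mki67 stood at 12.19 and 12.24 in the TKO pools against 12.44 and 11.45. The 5 measured markers of granulocyte and monocyte progenitors were high in pool 2 of both groups, which exceeded pool 1 by a median of 2.11 in the TKO and 3.58 in the WT pools. The log2 of their summed level was 12.81 and 14.29 in the TKO pools and 11.97 and 14.02 in the WT pools. All 9 measured neutrophil markers were above 0, with log2 summed levels of 16.04 and 15.38 against 14.27 and 15.39, so that WT pool 1 was the lowest. Of the 8 measured HSC markers 6 were below 0, among them Mecom and Hlf, where 50.8% of all genes were. Slamf1 (0.24) and Hoxb5 (0.37) were above 0. The log2 summed levels of the HSC markers were 13.36 and 13.61 against 13.80 and 13.91. Macrophage, B cell, T and NK cell, erythroid, megakaryocyte and multipotent progenitor markers had summed levels between 7.48 and 12.88. No detection calls were used, so no marker is called absent. The part of these shifts in the members' values was not tested, and in sorted bulk cells a change in cell make-up and a change in RNA per cell cannot be told apart.

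Homologous recombination was the pathway with the most members on the higher side, 10 of 12 with a median difference of 0.29. Brca2, a tumour suppressor needed for repair by homologous recombination, stood at 10.19 in both TKO pools and at 9.55 and 9.71 in the WT pools. The groups did not overlap, and the 1.48-fold difference (log2 0.56, SE 0.15, limma adjusted p = 0.761) was larger than the gap within either group. Rad51ap1, which promotes strand invasion, had values of 11.29 and 11.37 against 10.92 and 10.56. It was 1.50-fold higher (log2 0.59, SE 0.18), again with no overlap. Blm, the helicase that dissolves crossed-over intermediates, had 9.84 and 10.06 against 9.50 and 9.64 (0.38, SE 0.16). Brca1, the ubiquitin ligase that promotes end resection, had 10.01 and 10.14 against 9.90 and 9.65, a difference of 0.30 (SE 0.16).

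Rad51c, which acts in homologous recombination and crosslink repair, had the largest difference of the members (0.66, SE 0.36), and it came mostly from 1 pool. Its values were 7.44 and 7.44 in the TKO pools, 7.33 in WT pool 1 and 6.24 in WT pool 2. Without WT pool 2 the difference was 0.11. The translocases Rad54l (0.25, SE 0.22) and Rad54b (0.32, SE 0.34) and the helicase Brip1 (0.27, SE 0.29) had the same shape. They turned to -0.03, -0.16 and -0.14 without WT pool 2. For Rad54l this shape depended on the probe set. Its next brightest probe set separated the groups, with 9.42 and 9.01 against 8.88 and 8.70 (0.42, SE 0.20). Another Rad54l probe set (0.37, SE 0.21) did so too, and the dimmest (0.29, SE 0.22) overlapped. Xrcc3, which binds the Rad51c protein, was at 0.19 (SE 0.25) and Palb2, which joins BRCA1 to BRCA2, at 0.05 (SE 0.17, 95% interval -0.38 to 0.48).

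Rad52, which anneals complementary single strands, and Bard1, the partner of BRCA1, lay on the other side. Rad52 stood at 6.13 and 6.27 in the TKO pools and at 6.60 in both WT pools, 1.32-fold lower in the TKO pools (log2 -0.40, SE 0.15, limma adjusted p = 0.782). A second Rad52 probe set of like brightness had 6.26 and 6.43 against 6.53 and 6.27 (-0.06, SE 0.17), and there the groups overlapped. Bard1 had 5.33 and 5.33 against 5.36 and 5.58 (-0.14, SE 0.16). Both TKO pools were below both WT pools for these 2 genes and above them for 5 of the other 10. Over all genes the shares were 18.5% below and 17% above. The pathway's median was 0.45 without WT pool 1 and 0.06 without WT pool 2.

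**Figure D2:**
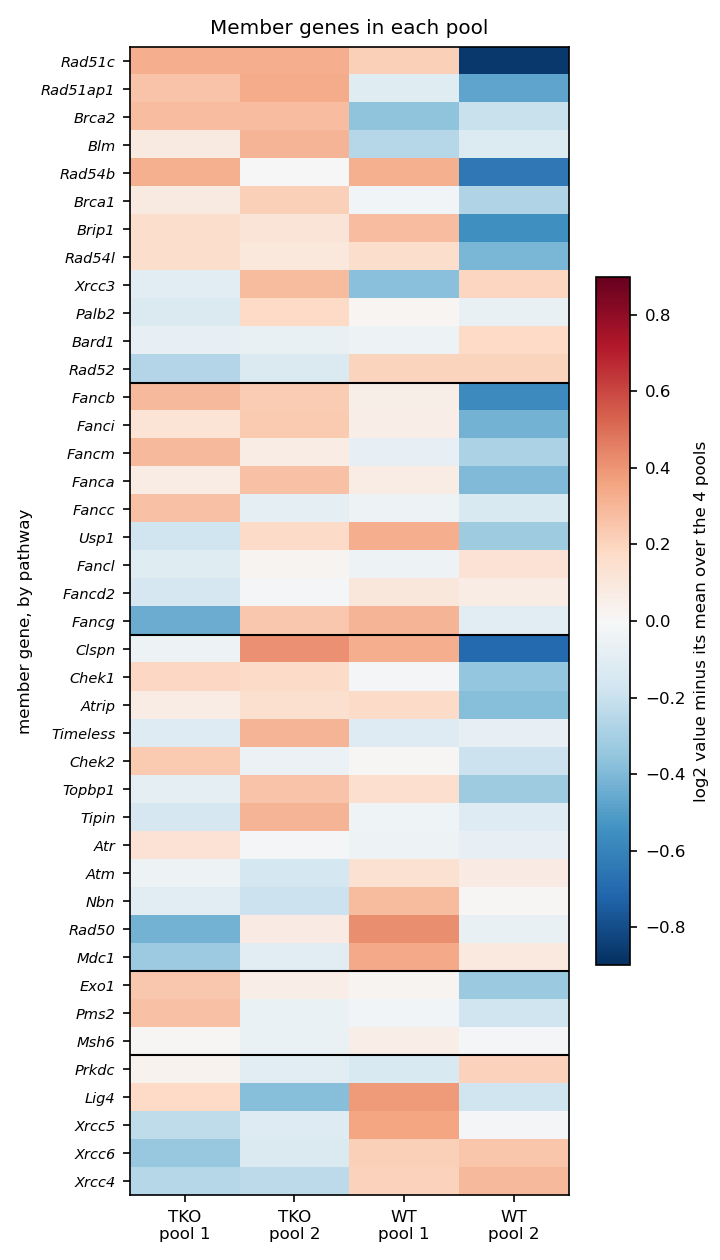
Log2 value of each member in each of the 4 pools, minus its own mean over the 4 pools, by pathway and within it by difference. WT pool 2 is the lowest for Rad51c, Rad54b, Brip1, Rad54l, Fancb and Clspn, whereas Xrcc4 and Xrcc6 are lower in both TKO pools than in both WT pools.

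Of the 9 Fanconi anaemia genes 5 were higher and 4 lower, with a median of 0.18. Fancb, Fanca and Fancm belong to the complex that recognises the crosslink and ubiquitinates FANCD2 and FANCI. Fancb had 7.94 and 7.87 in the TKO pools against 7.70 and 7.07, 1.43-fold higher (log2 0.52, SE 0.24, limma adjusted p = 0.802). Fancm had 8.70 and 8.47 against 8.33 and 8.12 (0.36, SE 0.17). Neither of these 2 genes overlapped between the groups, though the dimmer Fancm probe sets were at 0.08 and -0.09. Over all genes, both TKO pools lay above both WT pools for 17%. Fanca had 7.61 and 7.81 against 7.61 and 7.14, a difference of 0.33 (SE 0.21), with TKO pool 1 level with WT pool 1.

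The genes of the 2 proteins that form the ubiquitinated clamp differed in sign on their brightest probe sets. Fanci had 7.77 and 7.88 against 7.71 and 7.22 (0.36, SE 0.21). Fancd2 had 7.06 and 7.19 against 7.31 and 7.27 (-0.17, SE 0.15), with no overlap between the groups. The other 3 Fancd2 probe sets were dimmer and gave differences between 0.27 and 0.31. The brightest of these was close in level and separated the groups the other way, with 7.02 and 7.21 against 6.80 and 6.84 (0.30, SE 0.15). The direction of Fancd2 thus depended on the probe set. The core complex genes Fancc (0.18, SE 0.18), Fancg (-0.20, SE 0.28) and Fancl (-0.09, SE 0.16) overlapped between the groups.

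Usp1, the deubiquitinase that resets FANCD2 and FANCI, had the smallest difference of the members on its brightest probe set. The values were 12.32 and 12.67 against 12.82 and 12.18 (difference -0.00546, 95% interval -0.67 to 0.66). Its 2 other probe sets separated the groups. One had 10.40 and 9.85 against 9.69 and 9.70, and the dimmest had 7.65 and 7.60 against 7.14 and 6.89, with a difference of 0.61 (SE 0.16, limma adjusted p over all probe sets = 0.708). The direction of Usp1 therefore depended on the probe set.

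Among the 12 checkpoint and break sensing genes, 8 were higher and 4 lower. Chek1, the effector kinase of ATR, stood at 11.49 and 11.48 in the TKO pools against 11.30 and 10.96, a 1.28-fold difference (log2 0.36, SE 0.17, limma adjusted p = 0.811). The groups did not overlap on this probe set, but they did on the next brightest Chek1 probe sets, at 0.13 and 0.12. Claspin (Clspn), the adaptor that brings CHK1 to ATR, had 8.61 and 9.06 against 8.98 and 7.95 (difference 0.37, SE 0.37). Only WT pool 2 was low, and Clspn turned to -0.15 without it. Topbp1, the activator of ATR, was at 0.17 (SE 0.23), ATR's partner Atrip at 0.21 (SE 0.22) and Atr itself at 0.12 (SE 0.15). The fork protection partners Timeless and Tipin were at 0.19 (SE 0.19) and 0.16 (SE 0.20). Atrip and Topbp1 turned to -0.07 and -0.06 without WT pool 2, and Timeless and Tipin to -0.02 and -0.07 without TKO pool 2. Chek2, the effector kinase of ATM, was at 0.18 (SE 0.18).

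The 4 lower genes were Mdc1, Nbn, Atm and Rad50. Mdc1, the scaffold that binds phosphorylated histone H2AX, stood at 8.21 and 8.44 in the TKO pools against 8.88 and 8.63, a 1.34-fold difference (log2 -0.43, SE 0.17, limma adjusted p = 0.796). Nbn, a subunit of the MRN break sensor, had 9.07 and 8.98 against 9.46 and 9.19 (-0.30, SE 0.16). Atm had 8.75 and 8.64 against 8.93 and 8.87 (-0.21, SE 0.15). Both TKO pools were below both WT pools for each of these 3, as they were for 18.5% of all genes. A second Atm probe set had the opposite sign, with 8.36 and 8.65 against 8.33 and 8.48 (0.10, SE 0.17) and overlapping groups. Rad50, another MRN subunit, had 9.30 and 9.79 against 10.14 and 9.66 (-0.35, SE 0.26), so TKO pool 2 lay above WT pool 2. The pathway's median was 0.17, or -0.00796 without TKO pool 2 and -0.06 without WT pool 2.

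Mismatch repair had 3 members, with a median of 0.20. Exo1, the exonuclease that removes the mismatched strand and also resects breaks, stood at 8.15 and 7.96 in the TKO pools against 7.93 and 7.57, a difference of 0.31 (SE 0.19) with no overlap. Its other 2 probe sets gave -0.10 and -0.21. Pms2, the endonuclease subunit, had 8.25 and 7.93 against 7.96 and 7.81 (0.20, SE 0.18), and the groups overlapped. Its other 2 probe sets gave -0.29 and 0.19. Msh6, which recognises the mismatch, had 11.05 and 10.99 against 11.11 and 11.04, a difference of -0.05 (SE 0.14, 95% interval -0.41 to 0.31).

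End joining was the only one of the 5 pathways with 0 members on the higher side, 5 of 5 lower with a median of -0.34, where 50.8% of all genes were lower. Xrcc4, the scaffold of the ligation step, stood at 7.46 and 7.48 in the TKO pools and 7.93 and 8.01 in the WT pools. It was 1.41-fold lower in the TKO pools (log2 -0.50, SE 0.14, limma adjusted p = 0.761). Xrcc6 (Ku70) and Xrcc5 (Ku80) form the ring that first binds a broken end. Xrcc6 had 8.89 and 9.10 against 9.44 and 9.48, 1.38-fold lower (log2 -0.47, SE 0.15), and Xrcc5 had 8.12 and 8.23 against 8.70 and 8.34 (-0.34, SE 0.18). For these 3 both TKO pools lay below both WT pools, as they did for 18.5% of all genes.

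The remaining end joining genes overlapped. Prkdc, the DNA-dependent kinase recruited by Ku, had 9.15 and 9.01 against 8.97 and 9.32 (-0.07, SE 0.18, 95% interval -0.53 to 0.39). Lig4, the ligase, had 6.06 and 5.50 against 6.27 and 5.70 (-0.20, SE 0.28), with a gap of 0.56 within the TKO pools and 0.57 within the WT pools. Prkdc turned to 0.10 without WT pool 2, and Lig4 to 0.08 without TKO pool 2 or WT pool 1. The pathway's median stayed between -0.45 and -0.24 with any 1 pool left out.

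Set against each WT pool in turn, the pathways behaved differently. Against WT pool 2 the homologous recombination median was 0.42 for TKO pool 1 and 0.48 for TKO pool 2, and against WT pool 1 it was 0.06 and 0.14. The Fanconi medians were 0.40 and 0.36 against WT pool 2, and 0 and 0.07 against WT pool 1. Checkpoint genes had 0.08 and 0.26 against pool 2, and -0.15 and 0.00378 against pool 1. The 3 mismatch repair genes had 0.44 and 0.12 against pool 2, and 0.22 and -0.03 against pool 1. End joining was below 0 in all 4 of these comparisons, at -0.22 and -0.31 against WT pool 2 and -0.46 and -0.44 against WT pool 1. These comparisons share pools and are given as a description.

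The proliferation markers moved between the same pools. Their median was 0.65 and 0.56 against WT pool 2, and -0.08 and -0.07 against WT pool 1. WT pool 2 was lower than WT pool 1 for 31 of the 41 members, where 45.3% of all genes were lower. The count was 8 of 9 Fanconi genes, 11 of 12 checkpoint genes, 3 of 3 mismatch repair genes and 7 of 12 homologous recombination genes, but 2 of 5 end joining genes. The median gap between the WT pools was 0.27 for a member, close to the median size of the group difference, 0.27, and that between the TKO pools was 0.14. The group difference exceeded both gaps for 13 of the 41 members, and for 23.3% of all genes.

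**Figure D3:**
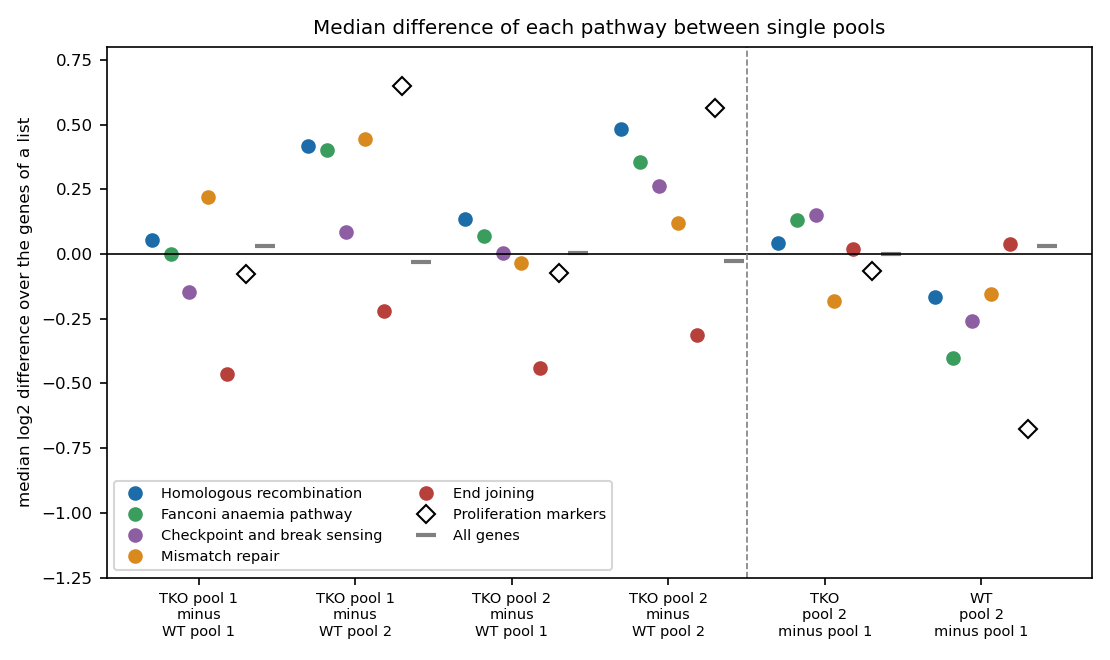
Median log2 difference of each pathway's genes, of the proliferation markers and of all genes between single pools, with the 4 comparisons across groups to the left of the dashed line and the gaps within groups to its right. End joining lies below 0 in all 4 comparisons across groups, while homologous recombination reaches 0.42 and 0.48 against WT pool 2 and 0.06 and 0.14 against WT pool 1.

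A further readout came from the members' other probe sets, which read the same RNA on the same arrays and are not independent samples. The array held 84 probe sets for the 41 genes, and 26 genes had more than 1. Of these 26, all probe sets were above 0 for 10, all were below 0 for 6 and both signs occurred for 10. Rad54l, Fancb, Fanci and Chek1 were among those with all probe sets above 0. All 4 Rad54l probe sets lay between 0.25 and 0.42, and all 5 Chek1 probe sets between 0.12 and 0.49. Both Fancb probe sets separated the groups, the second at 6.89 and 6.92 against 6.31 and 6.56 (0.47, SE 0.16).

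Of 84 probe sets 7 were higher at an unadjusted p under 0.05, where 3.4% of all 45037 probe sets were, and 3 were lower, where 3.36% were. By limma 0 passed the adjusted threshold, as did 0% of all probe sets. The lowest p belonged to the second Topbp1 probe set, which stood at 8.24 and 7.93 in the TKO pools against 6.79 and 7.04. That was 2.25-fold higher (log2 1.17, SE 0.18, limma adjusted p over all probe sets = 0.701), while the brighter Topbp1 probe set overlapped between the groups at 0.17. The second Clspn probe set also separated the groups, with 7.35 and 6.98 against 6.61 and 6.18 (0.77, SE 0.23). In end joining 7 of 7 probe sets were below 0, where 45.8% of all probe sets were. The second probe sets of Xrcc4 (-0.15, SE 0.14) and Xrcc6 (-0.03, SE 0.17) were nearer to 0 than the brightest. In homologous recombination 17 of 24 probe sets were above 0, where 54.2% of all probe sets were. In 4 genes of this pathway 1 probe set went against the reported value, at -0.27 for Rad51ap1, -0.23 for Xrcc3, -0.11 for Brca1 and -0.07 for Rad51c.

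**Figure D4:**
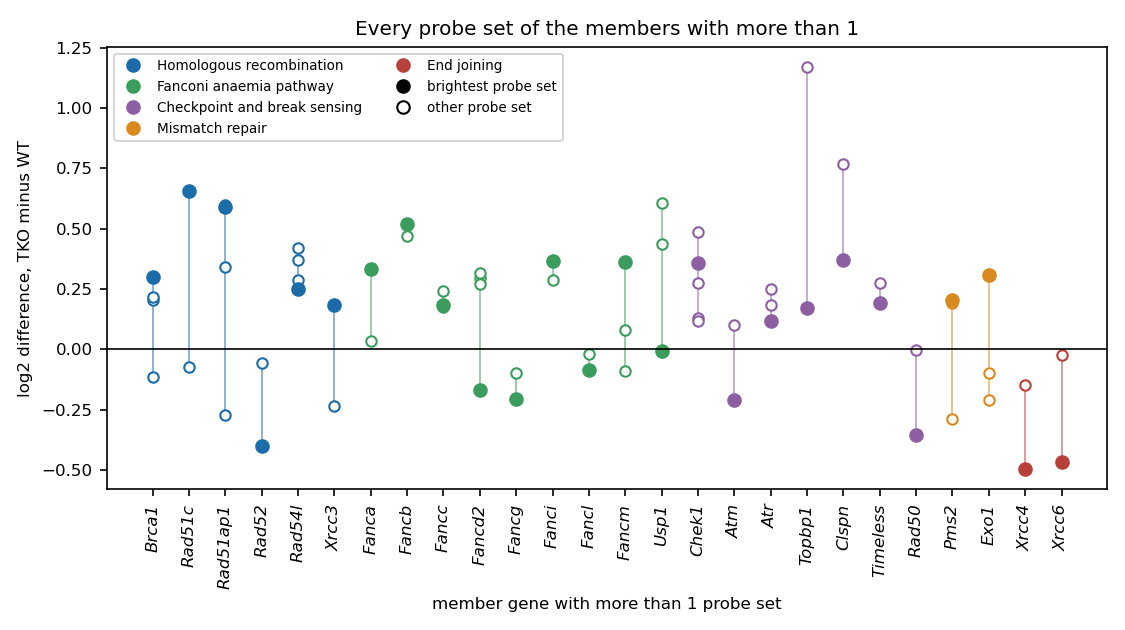
Log2 difference of every probe set of the 26 members with more than 1, with the brightest probe set filled and the others open, coloured by pathway. Topbp1 has a second probe set at 1.17 beside 0.17, Usp1 runs from -0.00546 to 0.61, and all probe sets of Xrcc4 and Xrcc6 lie below 0.

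The E2F word in the promoter window did not sort the members by direction. Of the 10 members with a word 5 were higher and 5 lower, with a median of 0.06. Of the 23 members with a window and no word, 17 were higher and 6 lower, with a median of 0.20. Brca2 (0.56) and Xrcc6 (-0.47), whose printed stretches carry the same word GCGGGAAA, had differences of opposite sign. Their stretches were picked for printing because of those signs, so this pair adds nothing to the counts. Rad51ap1 and Fancb, at 0.59 and 0.52, had no E2F word in the window. Of the 20 members with a CCAAT box 15 were higher, and of the 13 without one 7 were. Of the 2 with a CHR element 1 was higher and 1 lower. A site spelled otherwise or outside the window would be missed, so these splits do not test control by E2F.

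**Figure D5:**
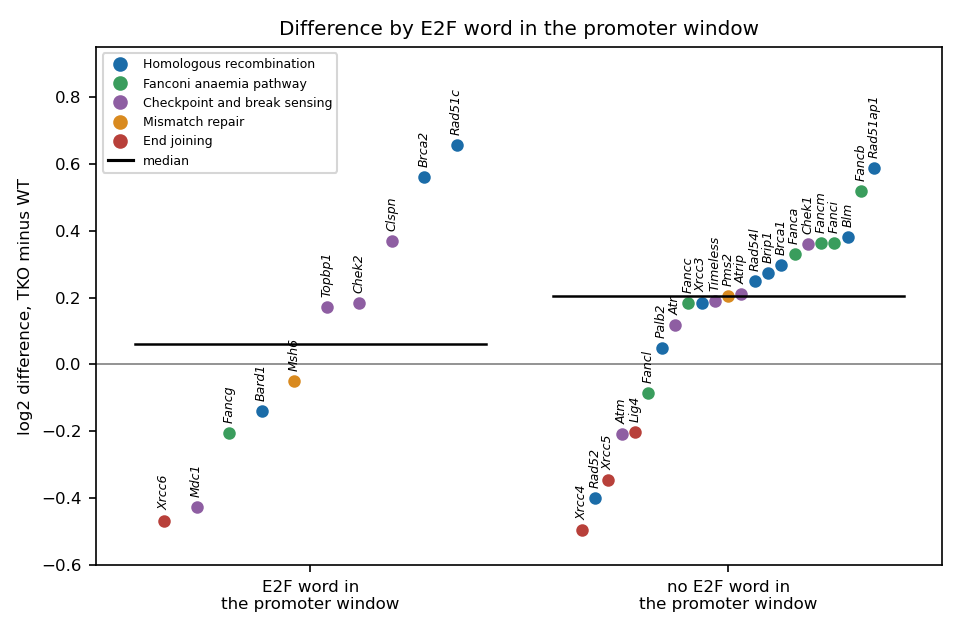
Log2 difference of the 33 members with a promoter window, split by whether an E2F word was found, with each gene named, coloured by pathway and a line at the median. The 10 genes with a word run from -0.47 (Xrcc6) to 0.66 (Rad51c), with 5 on each side of 0.

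Other repair genes were set beside the members from lists that do not overlap them. Of 115 such genes measured, 48 were higher and 67 lower, with a median of -0.04, and 0 passed limma's adjusted threshold. At an unadjusted p under 0.05, 1 was higher and 4 were lower, where 2.19% of all genes were higher and 4.04% lower. The higher one was the resolvase gene Gen1, at 7.01 and 6.92 against 6.46 and 6.60 (0.43, SE 0.15). Poli, a translesion polymerase, stood at 7.46 and 7.69 against 8.15 and 8.21, 1.52-fold lower in the TKO pools (log2 -0.61, SE 0.16, limma adjusted p = 0.761). The topoisomerase gene Top3a, whose product works with BLM, differed by -0.55 (SE 0.21), the mismatch repair gene Pms1 by -0.56 (SE 0.21) and the glycosylase gene Nthl1 by -0.38 (SE 0.14).

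By list, 14 of 29 other recombination and crosslink genes were higher (median -0.02), as were 11 of 24 other checkpoint genes (-0.02) and 2 of 9 other mismatch repair genes (-0.15). The checkpoint genes with the lowest p were Rad1 of the 9-1-1 clamp (-0.37, SE 0.15) and the single-strand binding protein gene Rpa2 (0.31, SE 0.15). Among other mismatch repair genes the polymerase subunit gene Pold1 was at 0.41 (SE 0.22). Of the other end joining genes 4 of 10 were higher (median -0.09), with Lig3 at -0.36 (SE 0.17) and Aplf at -0.19 (SE 0.16). Base excision repair had 6 of 16 higher (-0.04), with Parp2 at -0.32 (SE 0.14). Nucleotide excision repair had 8 of 20 higher (-0.03), with Ddb2 at 0.36 (SE 0.14) and Ercc4 at -0.36 (SE 0.17). Translesion synthesis had 3 of 7 higher (-0.14), with Mad2l2 at -0.22 (SE 0.17).

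Targets of p53 that answer DNA damage were mostly on the lower side, 8 of 23 higher with a median of -0.07. At an unadjusted p under 0.05, 0 were lower and 2 were higher, where 4.04% of all genes were lower and 2.19% higher. The 2 were the cell cycle inhibitor Cdkn1a (1.17, SE 0.25) and the antiproliferative gene Btg2. Btg2 stood at 7.88 and 8.03 against 7.14 and 7.56 (0.60, SE 0.20). Of 23 proliferation markers 20 were higher with a median of 0.27, or -0.11 without WT pool 2. Those with the lowest p were the phosphatase gene Cdc25c, at 8.79 and 8.73 against 7.54 and 7.95 (1.01, SE 0.19), and the cyclin gene Ccna2, at 11.19 and 11.17 against 10.52 and 10.47 (0.69, SE 0.14). Both, picked for their low p, were higher in both TKO pools than in both WT pools. Top2a stood at 12.32 and 12.38 against 12.55 and 11.87. Of the 23 markers 6 separated the groups in this direction, where 17% of all genes did, and 17 markers overlapped. Among the targeted genes Rbl2 (p130) differed by -0.83 (SE 0.19), Rbl1 (p107) by -0.96 (SE 0.30) and Rb1 by 0.29 (SE 0.16). Where their probe sets lie relative to the deleted parts is not given, so the Rb1 and Rbl2 values do not check the labels. Rbl1 stood at 5.35 and 5.42 in the TKO pools against 5.92 and 6.77 (limma adjusted p = 0.761), although both groups are labelled p107-/-. The cause of the Rbl1 difference was not tested.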

How the data were processed

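The authors deposited 1 log2 value per probe set and array. RMA and limma are the tools named in the submitters' processing notes, and the sources used here give no version or setting. That the scale is log2 follows from the range, 2.65 to 14.9. RMA equalises the arrays' distributions, which would hide a change in total RNA per cell, and it compresses differences of dim probe sets. Of 45101 probe sets, 64 controls were left out, 34945 had 1 gene symbol in the 2016 annotation, 932 had several and 9160 had none listed. Of the 34945, 34741 were found in RefSeq by Entrez ID, 0 of them with another symbol. Differences were fitted with limma 3.58.1 (lmFit, eBayes) in R 4.3.3, without a block, on 18193 genes, and separately on 45037 probe sets. Benjamini-Hochberg adjustment ran over all features. The script was tested on simulated data. SE is the moderated standard error, and the 95% interval is from the same fit. The number of arrays limits precision.

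The members and lists were chosen with earlier results of these data known, so no list was tested. Values in every pool were given for the 4 members with the smallest p in the 3 large pathways, all members of mismatch repair and end joining, and members with both TKO pools below both WT pools. Members given pool values beyond this rule, and probe sets singled out, were chosen after their values were seen. Other genes are the 2 with the smallest p per list, with Mki67, Top2a, Rb1, Rbl1 and Rbl2. Mecom and Hlf are examples of HSC markers, and Slamf1 and Hoxb5 are those above 0. Ddb2 and Cdkn1a appear on these rules. Alternatives were array centring, other probe set choices, a filter on dim genes (mean under 6), another variance model, a replicate block and leaving out each pool. Probe sets whose names end in _x_at, _s_at or _a_at were treated as less specific. The reported probe sets of Brca2, Rad52, Xrcc3, Fanca, Chek1 and Xrcc4 carry such an ending.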

Additional observations from a re-analysis of the deposited data

How the results depend on the processing

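Under all 10 alternatives 0 members passed limma's adjusted threshold, and the lowest adjusted p of a member was 0.469. Of the 41 members, 23 kept their sign under every alternative that gave them a value, 14 above 0 and 9 below, and the filter on dim genes gave none for Bard1. They include Brca2, Rad51ap1, Blm, Chek1, Fancb, Rad52, Mdc1, Xrcc4, Xrcc5 and Xrcc6. No test here can show stability in a design of 2 against 2 pools, and with a pool left out the lone pool is assumed to vary like the other group. The causes of the shifts below were not tested.

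The replicate block (pools paired by number) left 0 members past the threshold and gave 1 lower member at an unadjusted p under 0.05 in place of 3. The numbers are not stated to pair the pools, and over all genes the gaps between pools 1 and 2 of the groups correlated at -0.19. With the pairing crossed, an alternative chosen after seeing the data, 0 members passed, and the counts at an unadjusted p under 0.05 were 2 higher and 4 lower. The lower count was also 1 with specific probe sets first, and the higher count was 4 when probe sets were averaged. The share of all genes was not taken under these alternatives, so these counts are not read as results about the members. With averaging the mismatch repair median was -0.00134. The end joining median was -0.29 with median centring, -0.20 with specific probe sets first, -0.25 with averaging and -0.41 without dim genes, a filter that left out 3 members.

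With single pools left out, the counts of members at an unadjusted p under 0.05 changed, and they are not given without the share of all genes. The pathway medians ran from 0.00348 to 0.23 for all members, 0.0595 to 0.45 for homologous recombination, 0.0983 to 0.32 for Fanconi genes, -0.0646 to 0.18 for checkpoint genes, 0.0426 to 0.37 for mismatch repair and -0.45 to -0.24 for end joining. Those of the other lists ran from -0.0868 to 0.00270 for recombination and crosslink genes, -0.13 to 0.0719 for checkpoint genes, -0.33 to 0.0972 for mismatch repair, -0.14 to 0.00389 for end joining, -0.0728 to 0.0772 for base excision, -0.15 to -0.00296 for nucleotide excision, -0.16 to -0.00183 for translesion synthesis, -0.0768 to 0.00272 for p53 targets and -0.11 to 0.62 for proliferation markers.

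Of the members, 15 changed sign when a pool was left out. Their differences ran as follows, Palb2 from -0.11 to 0.20, Brip1 from -0.14 to 0.69, Rad54l from -0.0345 to 0.53, Rad54b from -0.16 to 0.80, Xrcc3 from -0.10 to 0.47, Fancg from -0.55 to 0.14, Fancl from -0.18 to 0.00348, Usp1 from -0.33 to 0.32, Atrip from -0.0664 to 0.49, Topbp1 from -0.0629 to 0.41, Clspn from -0.15 to 0.88, Timeless from -0.0179 to 0.40, Tipin from -0.0711 to 0.39, Prkdc from -0.24 to 0.10 and Lig4 from -0.49 to 0.0810. With specific probe sets first Xrcc3 was at -0.23. When probe sets were averaged Xrcc3 was at -0.0247, Fancd2 was at 0.18, Usp1 was at 0.35 and Exo1 was at -0.00134. With median centring Usp1 was at 0.0490 and Msh6 was at 0.00510.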
